A study of Mus musculus with 4 samples.

Results

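Messenger levels of 10 genes, immediate early genes and members of their families, were followed in cultured mouse liver progenitor-like cells. The genes were the Fos family (Fos, Fosb, Fosl1 and Fosl2), the Jun family (Jun, Junb and Jund), Atf3, Egr1 and Ier2. They were chosen by gene symbol, and all 10 were found among the 21878 rows of the deposited tables. The series holds 4 RNA-seq libraries, 2 of cells grown from hepatocytes (HepLPC) and 2 of cells grown from non-parenchymal liver cells (NPC_LPC), and asks how the 2 origins differ in expression. Per the labels the mice were C57BL/6, aged 6 to 8 weeks, and both groups were cultured in transition and expansion media. The protocol lists tdTomato mice given AAV8-TBG-Cre, a virus whose promoter restricts Cre to hepatocytes, for the hepatocyte preparation. It lists AlbCreERT/R26GFP mice, in which the albumin promoter drives an inducible Cre, for the non-parenchymal one. On that reading, mouse line and virus cannot be told apart from origin. Groups were taken from the titles, because the label of cell type for HepLPC names non-parenchymal cells beside hepatocytes. No label says that replicates were separate mice or cultures, so p-values measure the spread between these libraries, which may be technical.

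Immediate early genes are transcribed within minutes of a stimulus, without new protein synthesis, and their messengers are short-lived. Fos and Jun proteins carry a basic region and a leucine zipper (bZIP) and pair into the AP-1 dimer. Jun proteins can pair with each other, whereas Fos proteins need a Jun partner. EGR1 is a zinc finger factor induced by growth factors through ERK, SRF and the ternary complex factors. In the liver this group is known for its rapid induction after partial hepatectomy, and also after the dissociation of tissue into cells.

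Total counts per library ran from 17575998 to 20625957, and each of the 10 genes had at least 15 counts in every library. Levels below are CPM, counts scaled to library size with TMM factors, unless FPKM is named. A count of 3 equals 0.148 to 0.169 CPM. The labelled cell type was checked against its markers. The simple epithelial markers Krt8, Krt18 and Cdh1 summed to 4894 and 8547 CPM in HepLPC and, in NPC_LPC, to 1896 and 3183 CPM (replicates 1 and 2, the order kept below). The 6 hepatocyte markers summed to 3692 and 4974 CPM in HepLPC and, in NPC_LPC, to 2680 and 1520 CPM, nearly all of it Apob. Hnf4a was at 235 and 249 CPM in HepLPC, against 27.4 and 49.8 CPM in NPC_LPC. Cyp2e1 had no count in any library, Alb at most 41 counts, Ttr at most 27 and Cps1 at most 4. The 6 biliary and progenitor markers summed to 4681 and 2089 CPM in HepLPC and, in NPC_LPC, to 9327 and 4575 CPM. Spp1 was the most abundant on average and set the direction of that sum. Krt19 and Krt7 went the other way. Krt19 was at 1434 and 885 CPM in HepLPC, against 111 and 275 CPM in NPC_LPC. Krt7 was at 103 and 165 CPM in HepLPC, against 1.43 and 17.2 CPM in NPC_LPC. Sox9, Prom1 and Epcam overlapped between the groups, with Epcam at 31 counts or fewer. The 3 mesothelial markers summed to 199 to 788 CPM over the 4 libraries, most of it Msln. No gene of the marker lists was called by edgeR, which called 0.43% of all tested genes. Not every marker was tested: 3 of 6 hepatocyte, 2 of 7 stellate and fibroblast, 1 of 5 endothelial and 3 of 6 leukocyte markers were. Of 7 stellate and fibroblast markers, Lrat and Pdgfrb had at most 1 count, and the list summed to 3.21 to 15.9 CPM. The 5 endothelial markers summed to 2.08 to 7.16 CPM, with Pecam1 at 1 count or none. The 6 leukocyte markers summed to 52.4 to 114 CPM in HepLPC and 72.8 to 235 CPM in NPC_LPC, most of it Cd14. Cd68 came next, at 21.7 and 13.3 CPM in HepLPC, against 79.7 and 20.3 CPM in NPC_LPC. Clec4f was at 0 and Ptprc at 5 counts or fewer.

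The genes are compact. The leading coding transcript of Jun, Junb, Jund and Ier2 has a single exon in GENCODE M21, which is 4 of 10 genes against 1.96% of 11907 tested genes with such a transcript. The median span was 4.27 kb over the 10 genes and 23 kb over the tested genes. RefSeq upstream windows on GRCm38.p6, taken here as the 250 bases before an annotated start, were matched for 7 genes. For 6 the window ends at the edge of the RefSeq gene. That of Fosb belongs to a start further in, and 73 of its bases lie inside the gene. The windows of Fos, Jun and Atf3 are shown because these genes had both HepLPC libraries above both NPC_LPC libraries and a window outside the gene. Each is written 5′ to 3′ on the strand of its gene, with motif matches in capitals.
Fos, chr12:85473640-85473889, plus strand: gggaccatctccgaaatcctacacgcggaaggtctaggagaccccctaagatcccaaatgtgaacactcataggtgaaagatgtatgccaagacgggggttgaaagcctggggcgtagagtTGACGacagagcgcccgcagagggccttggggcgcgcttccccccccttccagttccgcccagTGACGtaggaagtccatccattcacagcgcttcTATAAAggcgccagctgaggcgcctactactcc
Jun, chr4:95052223-95052472, minus strand: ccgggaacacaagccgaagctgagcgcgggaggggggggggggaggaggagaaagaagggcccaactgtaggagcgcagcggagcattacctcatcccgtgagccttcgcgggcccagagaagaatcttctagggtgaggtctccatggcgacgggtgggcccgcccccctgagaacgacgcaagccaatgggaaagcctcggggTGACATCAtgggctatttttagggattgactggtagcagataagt
Atf3, chr1:191183334-191183583, minus strand: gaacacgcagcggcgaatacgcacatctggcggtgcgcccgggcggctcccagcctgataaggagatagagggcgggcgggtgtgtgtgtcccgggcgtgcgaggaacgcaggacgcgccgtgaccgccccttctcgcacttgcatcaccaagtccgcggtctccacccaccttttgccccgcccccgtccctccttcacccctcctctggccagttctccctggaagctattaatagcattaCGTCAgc

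Both strands were searched for 7 motifs. TGACG, the core of the cyclic AMP response element bound by CREB and ATF proteins, was found in 4 of the 7 windows (Fos, Fosb, Junb and Atf3) and in 17.8% of all 32851 windows. In Fos it began 129 and 66 bases before the start, and in Fosb 60 bases before the start its window belongs to, which is inside the RefSeq gene. In Atf3 it lay on the opposite strand within the last 7 bases, which GENCODE M21 places in the gene's first exon. The full element TGACGTCA, which contains that core, was in none of the 7 and in 1.55% of all. The variant AP-1 element TGACATCA, searched because it is known from the Jun promoter, was in the Jun window only, 45 to 38 bases before the start, and in 2.93% of all windows. The EGR motif, GCGTGGGCG or GCGGGGGCG, was in the window of Fosl2, in that of Fosb (again inside the RefSeq gene) and in 3.06% of all. TATAAA was in that of Fos and in 12.4% of all. The AP-1 element TGAGTCA or TGACTCA (4.46% of all) and the CArG box bound by SRF (1.47% of all) were in none of the 7. The 7 windows had a median G and C content of 64.4%, against 60% in windows of tested genes and 52.4% in all windows. The median number of CG pairs was 19, 16 and 6 in the same order. TGACG and the EGR motif contain CG, and the motif shares above are over all windows. Shares in windows of like composition were not compared. A match describes letters only, and elements outside these windows were not searched.

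Fos and Fosb, the Fos proteins that carry a transactivation domain, were the members with the largest ratio of means between origins and also those with the largest ratios between replicates. Fos (chromosome 12, 85473890 to 85477274, GRCm38) was at 24.1 and 82.6 CPM in HepLPC, against 0.823 and 2.72 CPM in NPC_LPC. The 2 HepLPC libraries were the high ones, and the lower of them was 8.85 times the higher NPC_LPC library. The mean of Fos was 53.3 ± 41.3 CPM against 1.77 ± 1.34 CPM (SD, n = 2 libraries each), 30.1-fold higher in HepLPC, with a log2 fold change of 4.90 (SE 0.87) and an edgeR adjusted p of 0.0763. Fosb (chromosome 7, 19302696 to 19310118) was at 20.3 and 94.0 CPM in HepLPC, against 1.59 and 4.06 CPM in NPC_LPC, again without overlap. Its log2 fold change was 4.33 (SE 0.89, edgeR adjusted p = 0.0867). Leaving out 1 library moved the log2 fold change of Fos between 3.75 (without HepLPC replicate 2) and 6.01 (without NPC_LPC replicate 2), and that of Fosb between 2.84 and 5.16 at the same libraries. Neither passed the threshold of 0.05 in the edgeR test, while DESeq2 called both higher in HepLPC (adjusted p = 1.33e-09 and 3.17e-07). Replicate 2 exceeded replicate 1 in Fos by 3.43 times in HepLPC and 3.31 times in NPC_LPC, and in Fosb by 4.62 and 2.55 times. In bulk RNA, fewer expressing cells and less RNA per cell cannot be told apart.

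Fosl1 and Fosl2 encode FRA-1 and FRA-2, Fos proteins that lack that transactivation domain and whose genes respond later. Fosl1 (chromosome 19, 5447698 to 5455938) was at 274 and 283 CPM in HepLPC, against 99.3 and 95.1 CPM in NPC_LPC. The replicates lay close together and the groups did not overlap. Fosl1 was 2.87-fold higher in HepLPC (log2 fold change 1.52, SE 0.22, edgeR adjusted p = 0.0599; DESeq2 adjusted p = 2.62e-07). Fosl2 (chromosome 5, 32136472 to 32157840) was at 94.1 and 104 CPM in HepLPC, against 173 and 136 CPM in NPC_LPC, so it alone among the 10 had both HepLPC libraries below both NPC_LPC libraries. Its log2 fold change was -0.64 (SE 0.24), and neither edgeR (adjusted p = 0.204) nor DESeq2 (adjusted p = 0.156) called it. Fosl1 shares 2767 bases with Ccdc85b on the opposite strand, which had 237 to 616 counts per library. Whether the counting used strand is not given in the sources used here.

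Jun (chromosome 4, 95049036 to 95052222), the main partner of Fos proteins, was at 248 and 372 CPM in HepLPC, against 59.0 and 103 CPM in NPC_LPC. The groups did not overlap, and the lower HepLPC library was 2.41 times the higher NPC_LPC library. The log2 fold change was 1.94 (SE 0.38, edgeR adjusted p = 0.0828; DESeq2 adjusted p = 3.61e-05). Jun lies on chromosome 4, whose 727 tested genes had a median log2 fold change of -0.61, so Jun was higher on a chromosome whose genes were mostly lower in HepLPC. On the chromosomes of the other 9 genes that median lay between -0.07 and 0.24. An antisense gene, Junos, overlaps Jun by 689 bases, and without the strand setting its reads cannot be told apart from those of Jun.

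Junb and Jund, weaker activators that can act against Jun in proliferation, had libraries that overlapped between the origins. Junb (chromosome 8, 84976909 to 84978748) was at 126 and 304 CPM in HepLPC, against 147 and 244 CPM in NPC_LPC, so the libraries numbered 1 were low and those numbered 2 high in both groups. Its log2 fold change was 0.14 (SE 0.48, edgeR adjusted p = 0.894), and it was -0.63 without HepLPC replicate 2 and -0.16 without NPC_LPC replicate 1. Jund (chromosome 8, 70697739 to 70700616) was at 101 and 193 CPM in HepLPC, against 110 and 87.3 CPM in NPC_LPC, with HepLPC replicate 2 above the other libraries. Its log2 fold change was 0.58 (SE 0.36, edgeR adjusted p = 0.40). An antisense gene lies within Jund, and Prdx2 overlaps the end of Junb by 351 bases.

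Atf3, a stress-induced bZIP factor that can repress or activate with Jun, rose in HepLPC and was the 1 gene of the 10 that edgeR called. Atf3 (chromosome 1, 191170296 to 191183333) was at 62.0 and 72.6 CPM in HepLPC, against 8.72 and 9.01 CPM in NPC_LPC. The replicates of each origin nearly coincided, and the groups stood 6.89-fold apart at their nearest libraries. The log2 fold change was 2.92 (SE 0.27, edgeR adjusted p = 0.0413; limma-voom adjusted p = 0.0647). The estimate stayed between 2.81 and 3.05 when any 1 library was left out. The edgeR adjusted p was then 0.129 without HepLPC replicate 1, 0.184 without HepLPC replicate 2, 0.0506 without NPC_LPC replicate 2 and 0.0211 without NPC_LPC replicate 1.

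Egr1 (chromosome 18) was at 205 and 128 CPM in HepLPC, against 17.1 and 35.5 CPM in NPC_LPC. HepLPC replicate 1 was the higher of its pair here, unlike in the other 9 genes. The log2 fold change was 2.66 (SE 0.45, edgeR adjusted p = 0.074; DESeq2 adjusted p = 3.62e-07). It was 3.28 without NPC_LPC replicate 2, where Egr1 passed (edgeR adjusted p = 0.0464), and 2.30, 2.96 and 2.25 without HepLPC replicate 1, HepLPC replicate 2 and NPC_LPC replicate 1, where it did not (edgeR adjusted p = 0.206, 0.203 and 0.0574). Ier2 (chromosome 8, 84661331 to 84662852), a nuclear regulator induced by growth factors, was at 89.3 and 131 CPM in HepLPC, against 26.7 and 46.9 CPM in NPC_LPC. The groups of Ier2 did not overlap, and its log2 fold change was 1.58 (SE 0.37, edgeR adjusted p = 0.104; DESeq2 adjusted p = 0.00222).

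**Figure D1:**
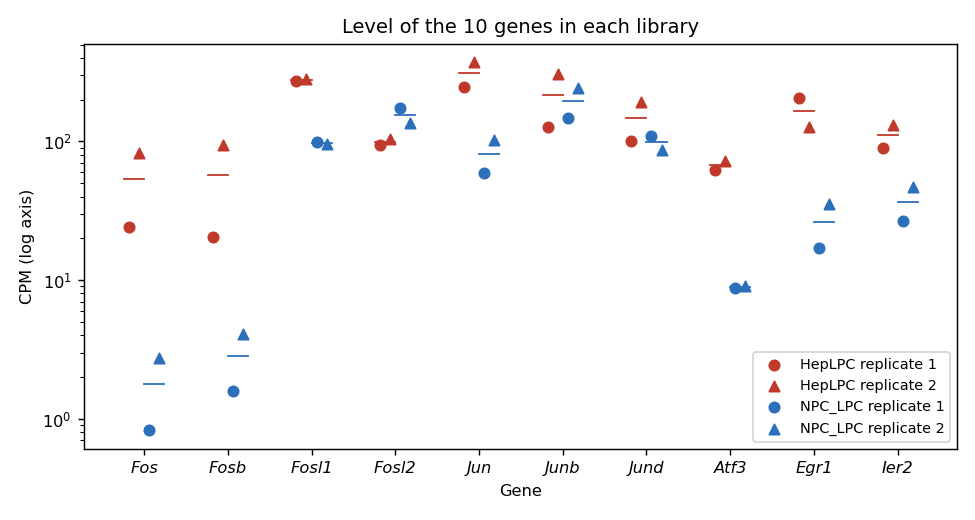
CPM of each gene (log axis) in the 4 libraries, with HepLPC in red, NPC_LPC in blue, circles for replicate 1, triangles for replicate 2 and short lines at the means of 2 libraries. Red points lie above blue ones for 7 genes and below them for Fosl2, while those of Junb and Jund overlap.

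In all, 1 of the 10 genes was called by edgeR, where 0.43% of 12332 tested genes were called (0.227% higher in HepLPC). DESeq2 called 7 of the 10, all higher in HepLPC, where it called 5.81% of genes higher and 12.3% in either direction. Limma-voom called 0 of 10, where it called 0.0405% of genes. At an unadjusted edgeR p under 0.05, 7 genes were higher and Fosl2 lower, against 10.4% and 11.5% of all genes. The groups did not overlap, with HepLPC higher, in 7 of the 10 and in 27.9% of all genes; the reverse held for 1 of the 10 and for 28.6%. The median log2 fold change was 1.76 over the 10 genes and -0.00298 over all tested genes. No single value was tested by permutation, since an exact test of groups this small gives at best p = 0.333.

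**Figure D2:**
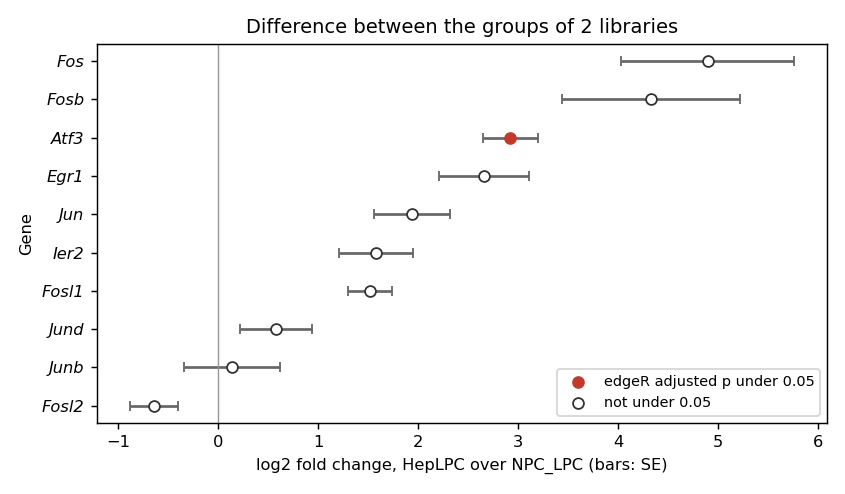
Log2 fold change of each gene, HepLPC over NPC_LPC, from edgeR with its SE (bars). Atf3, filled, has an adjusted p under 0.05; Fos and Fosb have larger changes with SE of 0.87 and 0.89.

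Several of the genes were far apart between replicates of the same origin. In HepLPC 3 of the 10 genes (Fos, Fosb and Junb) differed at least 2-fold between replicates, and in NPC_LPC another set of 3 (Fos, Fosb and Egr1), where 15.3% and 15.1% of all tested genes did. Replicate 2 was the higher in 9 of 10 genes in HepLPC and in 7 of 10 in NPC_LPC, against 50.5% and 53.2% of all genes.

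The deposited FPKM, which are scaled by transcript length, allow levels to be compared between genes. In HepLPC, Junb (123 ± 77.9 FPKM), Fosl1 (111 ± 6.16) and Jun (101 ± 31.3) were the most abundant and did not differ beyond their spread, followed by Ier2 (87.2 ± 29.1). Egr1 (43.3 ± 13.4) and Jund (38.6 ± 19.7) came next, then Fos (22.9 ± 17.7), Atf3 (20.7 ± 2.94) and Fosl2 (14.4 ± 1.29) with Fos within its own spread of both and Atf3 above Fosl2 in both HepLPC libraries. Fosb had the lowest mean, 10.4 ± 9.72 FPKM, but was above Fosl2 in HepLPC replicate 2. In NPC_LPC, Junb led at 104 ± 33.3 FPKM and Fosl1 followed at 38.3 ± 1.78. Ier2, Jun, Jund and Fosl2 came next within each other's spread (22.5 to 27.3 FPKM). Egr1 was at 6.86 ± 3.42 and Atf3 at 2.95 ± 0.112 FPKM, and Fos and Fosb were last at 0.718 ± 0.632 and 0.508 ± 0.324 FPKM.

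The shares of the genes within each family are described here without a test. They rest on the deposited FPKM, so they too depend on the transcript lengths used, as for Jund. Fosl1 was the most abundant Fos family transcript in every library, with 71.3 ± 11.8% of the family's FPKM in HepLPC and 61.8 ± 1.44% in NPC_LPC. Fosl2 held 9.20 ± 1.21% of the family in HepLPC and 36.1 ± 3.13% in NPC_LPC, whereas Fos held 13.5 ± 8.16% and 1.20 ± 1.10%. The ratio of Fosl1 to Fosl2 was 7.91 and 7.54 in HepLPC and 1.59 and 1.85 in NPC_LPC. Within the Jun family, Junb held 66.6 ± 4.94% in NPC_LPC, and Jun and Junb were nearly level in HepLPC (40.5 ± 7.95% and 44.9 ± 7.65%). The ratio of Jun to Junb was 1.17 and 0.693 in HepLPC replicates 1 and 2 and 0.234 and 0.256 in those of NPC_LPC, without overlap. Summed, the Fos family was at 159 ± 34.8 FPKM in HepLPC and 62.0 ± 4.33 in NPC_LPC, and the Jun family at 262 ± 129 and 155 ± 38.5.

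**Figure D3:**
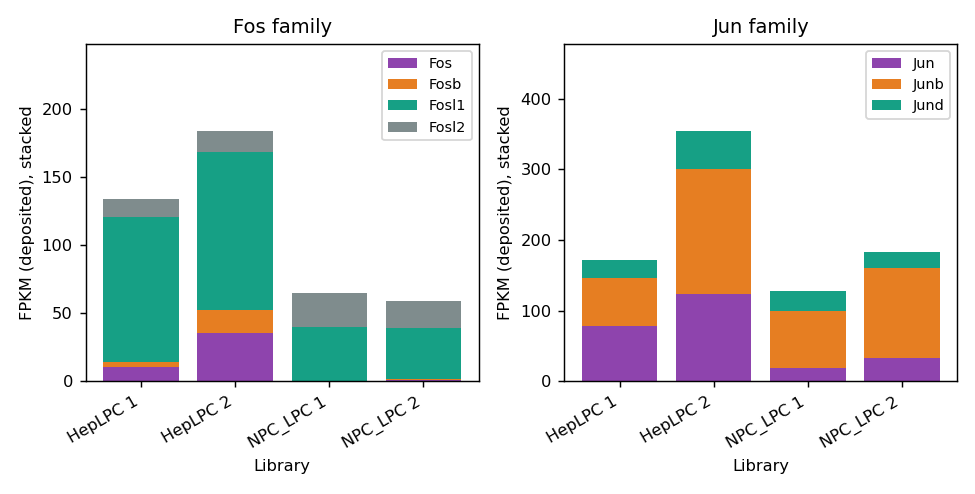
Deposited FPKM of the Fos family (left) and the Jun family (right), stacked by gene, in each library. Fosl1 makes up most of every Fos bar, the Fos and Fosb segments are hardly visible in NPC_LPC, and the Jun segment is larger in HepLPC.

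The profile most like the mean of the 10 genes was sought among 10065 other genes with a mean of at least 5 CPM. The measure was the distance between centred log2 CPM over the 4 libraries. Among the 5 nearest were Hes1 (distance 0.13), Spire2 (0.23), Ndrg1 (0.29) and Ank (0.37). Hes1, a repressor induced by Notch, was at 131 and 199 CPM in HepLPC, against 36.8 and 55.3 CPM in NPC_LPC. None of these 4 passed the edgeR test (adjusted p from 0.057 to 0.0957). Among the members, Jun (0.19) and Ier2 (0.39) lay nearest to that mean and Fos (3.03) and Fosl2 (2.68) farthest.

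Of all 12332 tested genes, the background for each related list, 6144 had a log2 fold change above 0 and 6188 below. At an unadjusted edgeR p under 0.05, 10.4% of them were higher and 11.5% lower. DESeq2 called 5.81% higher and 12.3% in either direction. Other immediate early genes were mostly higher in HepLPC by fitted value. Of 21 measured genes, 19 were tested and 17 had a log2 fold change above 0, with a median of 1.02, and edgeR called 1, Zfp36, which encodes a factor that destabilises messengers. Zfp36 rose from 37.7 and 32.4 CPM in NPC_LPC to 315 and 374 CPM in HepLPC (log2 fold change 3.30, SE 0.26, edgeR adjusted p = 0.0304), although edgeR called 0 genes of any kind when either HepLPC library was left out. At an unadjusted edgeR p under 0.05 the list had 8 genes higher, and DESeq2 called 7. The EGR family and its corepressors had 4 tested genes of 5, with a median log2 fold change of 1.21. The 2 EGR genes were above 0, at 7.10 CPM or less in every library, and the 2 corepressors were below. EdgeR called 0 of the list, 2 had an unadjusted p under 0.05 and DESeq2 called 1. The corepressors Nab1 (94.7, 70.6, 112 and 99.5 CPM in HepLPC replicates 1 and 2 and NPC_LPC replicates 1 and 2) and Nab2 (10.3, 7.77, 6.47 and 15.2 CPM) were not called.

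The bZIP partners of AP-1 had a median log2 fold change of 0.13 over 9 tested genes of 12, with 0 called by edgeR, 1 at an unadjusted p under 0.05 and 1 by DESeq2. Jdp2, a repressor that binds Jun, was at 67.7 and 58.0 CPM in HepLPC, against 58.0 and 57.2 CPM in NPC_LPC. Maff, a small MAF protein, was at 70.4 and 93.3 CPM and at 54.0 and 72.8 CPM. The upstream factors and kinases had a median of -0.26 over 15 genes, 12 of them below 0, with 0 called by edgeR or DESeq2 and 2 lower at an unadjusted edgeR p under 0.05. Mapk3, which encodes the kinase ERK1, was at 133 and 162 CPM in HepLPC, against 246 and 246 CPM in NPC_LPC.

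Textbook targets of AP-1 and EGR1 were mostly lower in HepLPC by fitted value. Of 18 measured genes, 16 were tested and 5 had a log2 fold change above 0 and 11 below, with a median of -0.73. EdgeR called 0 of them, 2 were higher and 5 lower at an unadjusted p under 0.05, and DESeq2 called 2 higher and 3 lower. Ccnd1, the cyclin of G1 progression, was at 2790 and 2416 CPM in HepLPC, against 1528 and 1440 CPM in NPC_LPC. Spp1, which encodes osteopontin, was at 3024 and 904 CPM and at 8939 and 4200 CPM.

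Heat shock genes, which respond to handling stress outside AP-1, were also higher in HepLPC by fitted value. All 7 had a log2 fold change above 0, with a median of 0.52, and edgeR called 0, while 3 had an unadjusted p under 0.05 and DESeq2 called 3. Hsp90aa1 was at 2710 and 2313 CPM in HepLPC, against 1436 and 1434 CPM in NPC_LPC, and Hspa8 at 4051 and 3981 CPM and at 2932 and 3420 CPM. The inducible Hspa1a was at 17.4 and 53.0 CPM in HepLPC, against 2.58 and 2.67 CPM in NPC_LPC. Limma-voom called 0 genes of the related lists other than Zfp36. The part of handling or harvest in these levels was not tested.

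**Figure D4:**
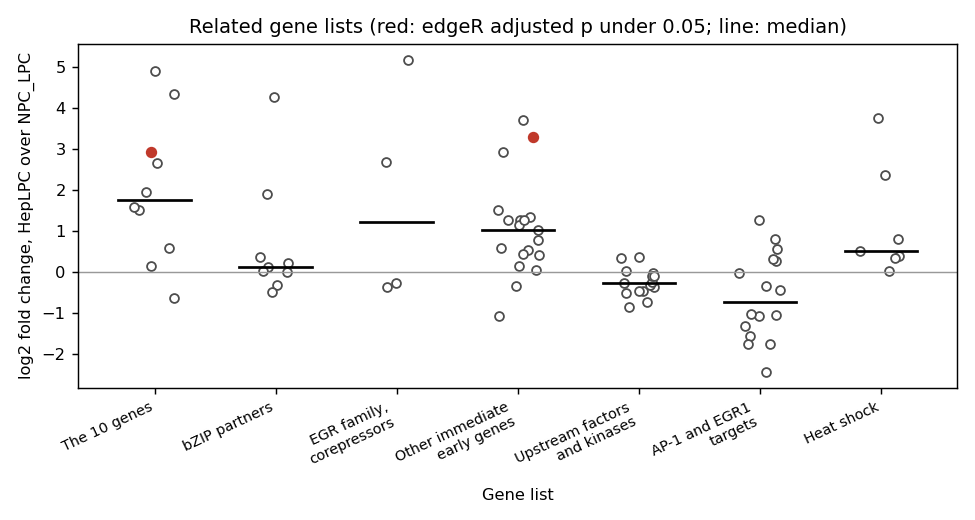
Log2 fold change, HepLPC over NPC_LPC, of every tested gene in the 10-gene group and the 6 related lists, with a line at each median and red for an edgeR adjusted p under 0.05. The medians are 1.76 for the 10 genes, 1.02 for other immediate early genes and -0.73 for the targets.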

How the data were processed

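Each library had a deposited table with 1 row per gene symbol. One column holds the counts of reads that the authors deposited, whole numbers without scaling, and all tests used it. The other column holds FPKM as deposited, used to compare levels between genes and in alternatives. The submitters' processing notes name HTSeq, HISAT2, Trimmomatic, Cufflinks and DESeq and the build mm10, and the role of each, versions, annotation and strand setting were not given in the sources used here.

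The test was edgeR 4.0.16 (R 4.3.3), by quasi-likelihood, after TMM scaling and filterByExpr, which kept 12332 of 21878 rows and all 10 genes, with group as the only term. P-values are two-sided, adjusted by the Benjamini-Hochberg method over all tested genes with a threshold of 0.05, and the SE comes from the F statistic. The script was tested on simulated data. Alternatives were DESeq2 1.42.0, limma-voom (limma 3.58.1), other scaling and filters, limma on log2 FPKM, the replicate number as a block and leaving out each library.

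The genes, the lists and the tests were chosen with earlier results of these data known. Besides the 10 genes, the text names, from each related list, up to 3 genes past the threshold or else the 2 with the highest FPKM, and the 5 nearest profiles; a few of these genes are not reported here. Hspa1a and the genes of the closing section were chosen after their values were seen, as was the search for TGACATCA. Distances use log2 CPM with a prior count of 2. Gene positions come from RefSeq on GRCm38.p6, the assembly called mm10, and overlaps and exons from GENCODE M21.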

Additional observations from a re-analysis of the deposited data

How the results depend on the processing

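The 10 genes called numbered 1 in the edgeR test, 7 with DESeq2, 7 in edgeR without a filter on low counts, 0 with limma-voom, 2 with limma on log2(FPKM + 1) and 0 with that test without a filter; leaving out 1 library gave 0 to 1. Over all genes the count was 53, and 1517, 593, 5, 111 and 0 in the same settings, with 0 to 377 when 1 library was left out. Over the related lists it was 1, and 14 with DESeq2, 6 without a filter on low counts, 2 and 0 with limma on log2(FPKM + 1), and 0 to 4 when 1 library was left out. The cause of these moves was not tested. Other scaling, a mean of at least 1 CPM and a pseudocount of 0.1 kept each count within 1.5 times. Leaving out a library reversed Junb, whose log2 fold change ran from -0.63 without HepLPC replicate 2 and -0.16 without NPC_LPC replicate 1 to 0.65 without HepLPC replicate 1; the other 9 genes kept their sign in all 14 alternatives, with Jund as low as 0.03.

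The replicate numbers were not taken as pairs, since no label ties them to an animal, batch or day. Over all tested genes, same-numbered libraries did not deviate together (correlation -0.017). That value does not describe the 10 genes, of which replicate 2 was the higher in 9 in HepLPC and in 7 in NPC_LPC. With the replicate block edgeR called 3 of the 10 genes (Fos, Fosb and Atf3), 136 of all genes and 1 of the related lists.

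Fos and Fosb had the largest SE among the 10 genes. Their counts were 15 to 82 in NPC_LPC and 366 to 1668 in HepLPC. The part of counting error in these SE was not tested.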

Other observations

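Some related genes outside the rule for named genes stood apart, and were picked after their values were seen. Egr3 was at 2.55 and 7.10 CPM in HepLPC and had 0 and 5 counts in NPC_LPC replicates 1 and 2 (edgeR adjusted p = 0.115). Dusp1, a phosphatase that switches off MAP kinases, was at 457 and 430 CPM in HepLPC, against 183 and 188 CPM in NPC_LPC (edgeR adjusted p = 0.0794). In the other direction, Cd44, a hyaluronan receptor among the listed targets, was at 446 and 551 CPM in HepLPC, against 1688 and 1671 CPM in NPC_LPC (edgeR adjusted p = 0.0656, DESeq2 adjusted p = 6.7e-09).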
